A study of Rattus norvegicus with 12 samples.

Results

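The BCL2 family decides whether the outer mitochondrial membrane is opened during apoptosis, and 10 of its genes are described here in a rat heart myoblast cell line, H9C2. The members were chosen by gene name: the pore-forming effectors Bax and Bak1, the BH3-only genes Bcl2l11 (which codes for BIM), Bid, Bad, Bbc3 (PUMA) and Pmaip1 (NOXA), and the anti-apoptotic genes Bcl2, Bcl2l1 (BCL-X) and Mcl1. All 10 were found among 16002 gene IDs, and all 10 passed the filter on low counts that left 11398 genes. Bcl2 reached the filter's level, 0.55 reads per M before TMM scaling, in 4 LITAF libraries but in only 1 H/R and 1 control library, so it was kept through the LITAF group.

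In this pathway the effectors form pores in the outer membrane and release cytochrome c, the anti-apoptotic proteins hold them back, and the BH3-only proteins respond to stress by blocking the anti-apoptotic proteins or by activating the effectors. Much of the control is exerted on the proteins themselves: BID is cleaved, BAD is held by 14-3-3 proteins when phosphorylated, and MCL1 is short-lived. In heart cells the pathway is known for its part in death after ischaemia and reperfusion. The data below are messenger RNA levels and hold no measurement of protein or of cell death.

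RNA was sequenced from 3 groups of 4 libraries. The LITAF group carried a lentiviral vector for overexpression of LITAF, an endosomal and lysosomal membrane protein, and went through hypoxia (1% oxygen, 8 h) and reoxygenation (2 h). The H/R group carried an empty vector and had the same hypoxia and reoxygenation, while the control group had normal oxygen and no vector. All cells were of the one line, the genotype label of the LITAF group is LITAF overexpression and that of the other groups wild type, and the control group therefore differs from the H/R group in the vector as well as in oxygen.

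Levels are TMM-scaled counts per M reads (CPM), and group values are means ± SD of 4 libraries. Fold changes are log2 ± SE from edgeR's quasi-likelihood test, and a gene is said to have risen or fallen when its p-value, adjusted by Benjamini-Hochberg over all 11398 genes, was under 0.05. LITAF libraries held 17.2 to 18.4 M counts, H/R libraries 16.9 to 18.1 M and control libraries 19.2 to 20.7 M. Litaf was measured at 2008 to 2691 CPM in the LITAF group, 549 to 619 CPM in the H/R group and 456 to 491 CPM in the control group. Of 9 skeletal myoblast markers, summed levels were 177 to 226 CPM in the LITAF group, 130 to 150 CPM in the H/R group and 1652 to 5971 CPM in the control group, with Myf5 at 0 in control. Myog alone was at 18.02 to 39.49, 4.993 to 19.56 and 1257 to 5730 CPM in the same order. Not all of these markers were lower in H/R than in control, with Des at 12.34 to 13.65 CPM in H/R and 3.057 to 4.435 CPM in control libraries. For 10 measured cardiac markers the sums were 166 to 228, 80.9 to 111 and 209 to 448 CPM in the LITAF, H/R and control groups, with Tnni3 at 0 in the H/R and control groups and Nppa at 0 in control. For 6 fibroblast markers they were 27840 to 36330, 23590 to 26770 and 60280 to 76150 CPM in the same order, with Dcn at 0 throughout. For 3 measured epithelial markers they were 39.9 to 76.0, 29.3 to 40.0 and 28.0 to 40.4 CPM, with Epcam at 0 in the LITAF and control groups. Summed levels of 5 endothelial and 3 measured leukocyte markers stayed at or under 1.39 and 1.67 CPM in every library. The part of these marker differences in the results was not tested, and in bulk RNA fewer cells of a type and less RNA per cell cannot be told apart.

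The question of the series is how LITAF changes expression under hypoxia and reoxygenation, and 2 of the 10 members rose in the LITAF group over the H/R group, while 0 fell and 8 missed the threshold. At an unadjusted p under 0.05 in edgeR's quasi-likelihood test 4 members were higher and 0 lower: Bax, Bcl2l11, Mcl1 and Bcl2, the last kept through the LITAF group. The share of all genes at that unadjusted threshold is not given here, so these 4 are not read as a result. DESeq2 called 2 members higher and 0 lower, beside 902 of all genes (627 higher, 275 lower). The 2 risen members were Bax, higher by 1.43-fold, and Bcl2l11, higher by 1.75-fold. Over all genes 4.88% were called in this comparison (3.73% higher, 1.15% lower), and the members' median was log2 0.12 against -0.01 for all genes. Between the groups, CPM ranges were apart for 3 members, Bax, Bcl2l11 and Mcl1, where 18.9% of all genes did not overlap. Rises made up 76.4% of all calls here, 61.0% when scaled by library totals and 66.5% by upper quartiles, and Bax and Bcl2l11 were called under both. Without LITAF library 1 rises made up 53.9% of calls, with 692 genes higher and 593 lower, against 425 and 131 with all libraries, and the same members were called.

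Against control, 5 of the 10 members were called in the H/R group: Bax, Bid, Bbc3 and Mcl1 rose and Bcl2l11 fell. This share stands beside 63.6% of all genes called in that comparison, 31.8% in each direction, and a members' median of log2 0.17 against 0.01. Groups did not overlap for 3 members (Bax, Bid and Mcl1), beside 58.6% of all genes. In the LITAF group over control 5 members rose, Bax, Bid, Bbc3, Bcl2l11 and Mcl1, and none fell, beside 64.6% of all genes called (32.0% higher, 32.6% lower). Groups did not overlap for 4 members there, beside 52.1% of all genes, and this comparison shares its libraries with the other comparisons. Values that were not whole numbers made up 11.9 to 12.6% of the LITAF columns, 11.4 to 12.4% of the H/R columns and 2.84 to 3.4% of the control columns, so whether the control columns were produced in another way cannot be told apart from the responses against control.

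**Figure D1:**
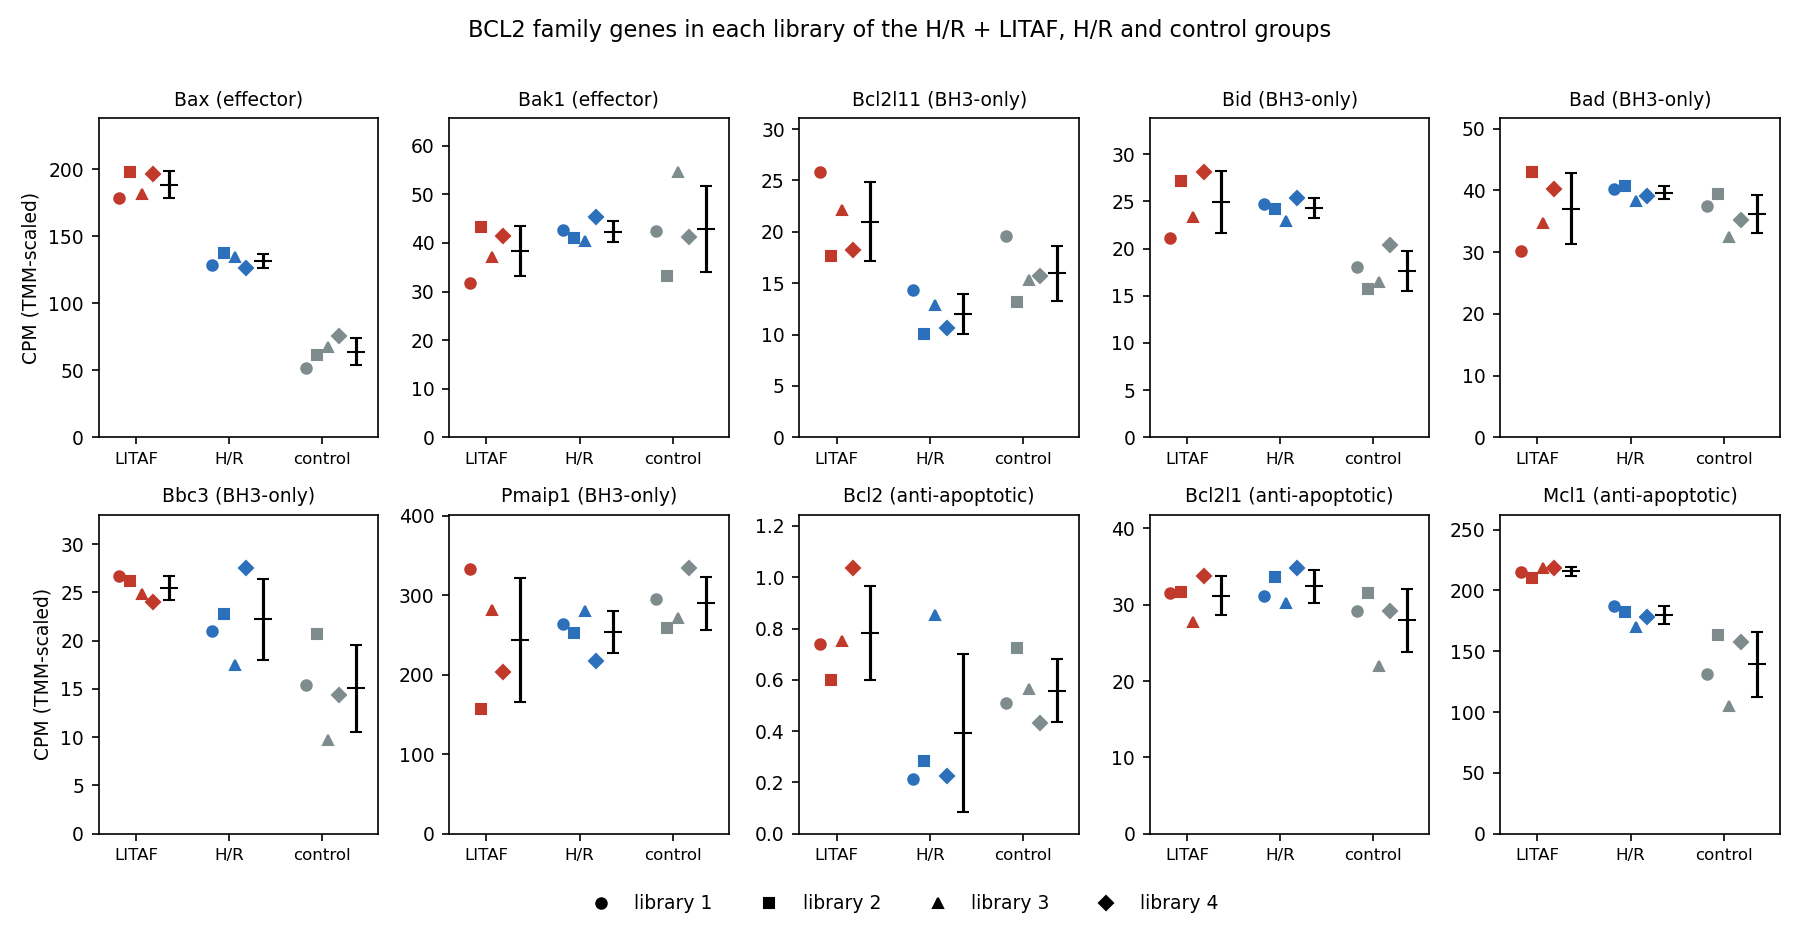
CPM of each of the 10 BCL2 family genes in the 4 libraries of the H/R + LITAF, H/R and control groups (one symbol per library number), with the mean and SD as a bar beside them. Bax separates all 3 groups, with 178 to 198 CPM in the LITAF group, 126 to 137 CPM in the H/R group and 52.0 to 75.7 CPM in the control group, while Bak1 overlaps across all 3.

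Among the effectors, Bax and Bak1 gave different values. Bax was measured at 178, 198, 182 and 196 CPM in LITAF libraries 1 to 4, 129, 137, 135 and 126 CPM in H/R libraries 1 to 4, and 52.0, 61.1, 67.3 and 75.7 CPM in control libraries 1 to 4. Every LITAF library lay above every H/R library, and every H/R library above every control library. Bax rose by log2 0.52 ± 0.11 in the LITAF group over H/R (edgeR's quasi-likelihood test, adjusted p = 0.0108) and by log2 1.04 ± 0.11 in the H/R group over control (adjusted p = 4.80e-07), a 2.06-fold rise. In the LITAF group over control the rise was 2.95-fold (log2 1.56 ± 0.11, adjusted p = 4.17e-09 by the same edgeR test).

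In the rat assembly GRCr8 Bax lies next to Ftl1, the ferritin light chain gene, which averaged 2518 ± 232 CPM in the LITAF group, 1864 ± 51.8 CPM in the H/R group and 350.9 ± 47.9 CPM in the control group. Its other neighbour, Dhdh, fell in the H/R group over control and did not pass in the LITAF group over H/R (adjusted p = 0.0546, edgeR), with 2.28 ± 0.605, 3.68 ± 0.323 and 9.46 ± 1.67 CPM in the LITAF, H/R and control groups. The gene spans of Bax and Ftl1 do not overlap in that assembly, and the part of neighbouring transcripts in the Bax counts was not tested.

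Bak1, the second effector, had 31.8, 43.3, 37.2 and 41.5 CPM in LITAF libraries 1 to 4, 42.6, 41.0, 40.5 and 45.3 CPM in the H/R libraries, and 42.4, 33.2, 54.7 and 41.3 CPM in the control libraries. The groups overlapped throughout. The log2 change was -0.14 ± 0.14 in the LITAF group over H/R (adjusted p = 0.619, edgeR), with an approximate 95% interval of -0.41 to 0.13, and -0.02 ± 0.14 in the H/R group over control (interval -0.29 to 0.25). The within-library ratio of Bax to Bak1, on the log2 scale and relative to the control mean, was 1.72 ± 0.13 in the LITAF group and 1.05 ± 0.13 in the H/R group, without overlap between them (SD, n = 4 each).

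**Figure D2:**
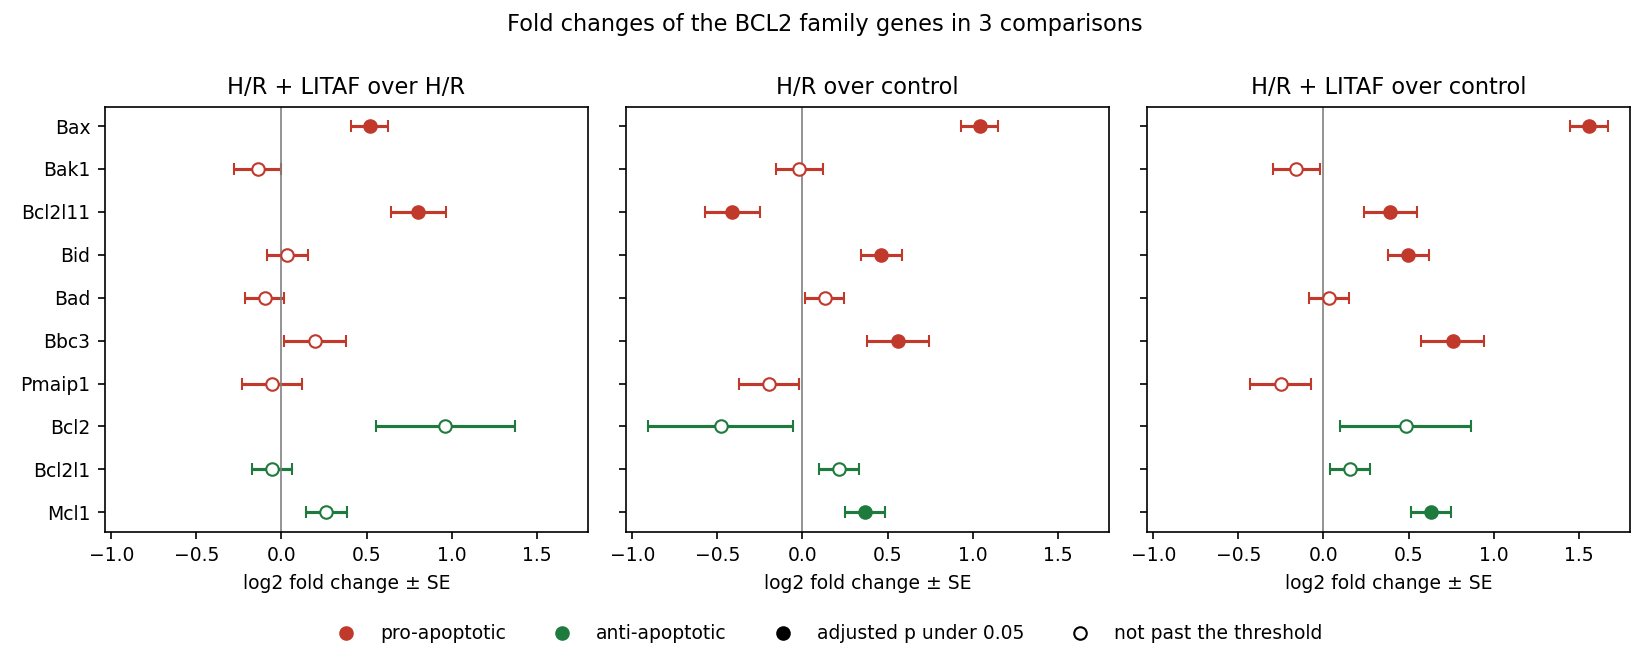
Log2 fold change (points) with its standard error (bars) for each member in the LITAF group over H/R, the H/R group over control and the LITAF group over control, pro-apoptotic genes in red and anti-apoptotic genes in green. Filled points passed an adjusted p of 0.05; Bcl2l11 lies at 0.80 over H/R and at -0.41 for H/R over control, and the Bcl2 bars are the widest, with standard errors of 0.41, 0.43 and 0.38.

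Among the BH3-only genes, Bcl2l11 was the member called in opposite directions in the comparisons. LITAF over H/R and H/R over control share the H/R libraries, so for any gene low H/R values push these estimates in opposite directions. Its product BIM binds all anti-apoptotic proteins named here and can activate BAX. It was measured at 25.9, 17.6, 22.2 and 18.2 CPM in LITAF libraries 1 to 4, 14.3, 10.1, 12.9 and 10.7 CPM in the H/R libraries, and 19.6, 13.2, 15.3 and 15.7 CPM in the control libraries. The H/R libraries lay below every LITAF library, and the control libraries overlapped with both. Bcl2l11 rose by log2 0.80 ± 0.16 in the LITAF group over H/R (adjusted p = 0.00836, edgeR) and fell by 0.41 ± 0.16 on the log2 scale in the H/R group over control (adjusted p = 0.0340, edgeR). The rise over H/R was called in each fit with 1 library left out. The fall against control was lost without H/R library 2 (log2 -0.33, adjusted p = 0.102, edgeR), H/R library 4 (log2 -0.36, adjusted p = 0.0868), control library 1 (log2 -0.30, adjusted p = 0.127) or control library 4 (log2 -0.42, adjusted p = 0.0504). It was also lost with library totals (log2 -0.28, adjusted p = 0.137, edgeR) and upper-quartile scaling (log2 -0.30, adjusted p = 0.0994), which moved the median of all genes to log2 0.13 and 0.12. In the LITAF group over control Bcl2l11 rose by log2 0.39 ± 0.16 (adjusted p = 0.0380, edgeR), a call lost without LITAF library 1 or 3 or control library 2, 3 or 4, at log2 0.30, 0.37, 0.31, 0.38 and 0.38.

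Bcl2l11 is known from other studies in mammals as a target of FOXO transcription factors, and Foxo1 is among the listed regulators. Foxo1 was at 31.7 ± 1.75 CPM in the LITAF group, 17.8 ± 1.18 CPM in the H/R group and 23.6 ± 2.70 CPM in the control group (SD, n = 4 each). It rose by log2 0.83 ± 0.11 in the LITAF group over H/R (adjusted p = 0.000198, edgeR) and fell by 0.41 ± 0.11 on the log2 scale in the H/R group over control (adjusted p = 0.00356, edgeR). Acoxl, whose span overlaps Bcl2l11 in GRCr8, was at 0.469 ± 0.209, 0.286 ± 0.16 and 0.563 ± 0.265 CPM in the LITAF, H/R and control groups and passed in neither comparison.

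Promoter windows, 250 bases before to 50 after the start, were taken from RefSeq (GRCr8) for 8 of the 10 members, all but Bax and Bbc3, with 11 windows in all. Each was searched on both strands for FOXO (GTAAACA), AP-1 (TGANTCA), CRE (TGACGTCA), ATF4 and C/EBP (TGATGNAA), hypoxia response (ACGTG), EGR (GCGNGGGCG) and heat shock (GAANNTTC) letters, and no match overlapped another within a window. FOXO letters were found in the windows of Bcl2l11 and Bad and in 3.78% of all 33469 windows of this length. Both are printed here because one gene was called in each comparison and the other, with TMM scaling, in none; the Bcl2l11 window is chr3:135819792-135820091 and the Bad window chr1:213562864-213563163, both on the plus strand, and capitals mark the FOXO letters.

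Bcl2l11: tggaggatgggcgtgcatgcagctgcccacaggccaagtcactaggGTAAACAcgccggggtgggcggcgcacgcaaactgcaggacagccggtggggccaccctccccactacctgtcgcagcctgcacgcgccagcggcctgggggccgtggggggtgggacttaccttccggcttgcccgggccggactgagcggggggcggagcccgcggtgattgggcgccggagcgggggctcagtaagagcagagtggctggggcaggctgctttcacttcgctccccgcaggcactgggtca
Bad: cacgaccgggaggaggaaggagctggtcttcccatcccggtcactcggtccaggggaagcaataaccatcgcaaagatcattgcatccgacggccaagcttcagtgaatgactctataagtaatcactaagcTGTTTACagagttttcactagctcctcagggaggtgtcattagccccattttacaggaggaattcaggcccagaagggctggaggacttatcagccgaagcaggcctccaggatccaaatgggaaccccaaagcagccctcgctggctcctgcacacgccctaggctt

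The match started 204 bases before the start of Bcl2l11 and 118 bases before that of Bad. AP-1, CRE and EGR letters, found in 7.33%, 1.83% and 4.98% of all windows, were in no member's window. ATF4 and C/EBP letters (3.98% of all windows) were in the window of Bcl2 and in 3 of the 4 windows of Bcl2l1, hypoxia response letters (19.3%) in that of Bcl2 and 1 of Bcl2l1, and heat shock letters (8.59%) in that of Pmaip1. Windows 2 and 4 of Bcl2l1 overlap on the chromosome, and their ATF4 and C/EBP matches, 189 and 54 bases before their starts, are the same site. A match of letters describes the window and shows no binding.

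Bid, whose product is cleaved by caspase-8 and links death receptors to the mitochondrion, was at 21.1, 27.1, 23.3 and 28.2 CPM in the LITAF libraries, 24.8, 24.2, 22.9 and 25.4 CPM in the H/R libraries, and 18.1, 15.7, 16.4 and 20.4 CPM in the control libraries. All libraries of both H/R groups lay above the control libraries. It rose by log2 0.46 ± 0.12 in the H/R group over control (adjusted p = 0.00291, edgeR) and by log2 0.50 ± 0.12 in the LITAF group over control, and stood at log2 0.04 ± 0.12 for the LITAF group over H/R, with an interval of -0.20 to 0.27.

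Bbc3 codes for PUMA, a BH3-only protein known to be induced by cell stress. It had 26.7, 26.2, 24.9 and 24.0 CPM in the LITAF libraries, 21.0, 22.8, 17.5 and 27.5 CPM in the H/R libraries, and 15.4, 20.7, 9.67 and 14.4 CPM in the control libraries. The LITAF libraries lay above the control libraries, and the H/R libraries overlapped with both groups. Bbc3 rose by log2 0.56 ± 0.18 in the H/R group over control (adjusted p = 0.0135, edgeR), and this call was lost without H/R library 4 (log2 0.45, adjusted p = 0.0516). In the LITAF group it was higher than control by log2 0.76 ± 0.18 (adjusted p = 0.00174, edgeR), and it stood at log2 0.20 ± 0.18 over H/R.

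Pmaip1 codes for NOXA, which binds mainly MCL1, and it was the most spread member within the LITAF group. It had 333, 157, 281 and 204 CPM in LITAF libraries 1 to 4, 263, 253, 280 and 218 CPM in the H/R libraries, and 296, 259, 271 and 334 CPM in the control libraries. LITAF libraries 1 and 3 lay at or above the highest H/R library and libraries 2 and 4 below the lowest. It passed in no comparison, with log2 -0.06 ± 0.18 over H/R and -0.20 ± 0.18 for the H/R group over control. Without LITAF library 1 it fell by 0.42 ± 0.16 on the log2 scale in the LITAF group over control (adjusted p = 0.0253, edgeR), against -0.25 ± 0.18 with all libraries. Bad, which sensitises cells to death unless phosphorylated, overlapped across all groups at 30.1 to 43.0 CPM in LITAF, 38.3 to 40.7 CPM in H/R and 32.5 to 39.5 CPM in control libraries, and passed in no comparison.

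On the anti-apoptotic side, Mcl1 rose against control and lay above H/R in all 4 LITAF libraries. It was measured at 215, 210, 218 and 219 CPM in the LITAF libraries, 188, 183, 170 and 178 CPM in the H/R libraries, and 131, 163, 105 and 157 CPM in the control libraries. None of the 3 groups overlapped. Mcl1 rose by log2 0.37 ± 0.12 in the H/R group over control (adjusted p = 0.0130, edgeR) and by log2 0.63 ± 0.12 in the LITAF group over control (adjusted p = 0.000217). In the LITAF group over H/R it stood at log2 0.26 ± 0.12 and did not pass (adjusted p = 0.227, edgeR); fitted without the control libraries it did (log2 0.27 ± 0.06, adjusted p = 0.0180), and with the replicate number as a block in that fit it did not (log2 0.27 ± 0.07, adjusted p = 0.0501).

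Bcl2l1, which codes for the anti-apoptotic BCL-XL and by alternative splicing for the pro-apoptotic BCL-XS, had 31.5, 31.7, 27.7 and 33.7 CPM in the LITAF libraries, 31.1, 33.6, 30.2 and 34.8 CPM in the H/R libraries, and 29.2, 31.6, 22.0 and 29.1 CPM in the control libraries. The groups overlapped, and counts per gene do not separate the isoforms. It stood at log2 -0.06 ± 0.12 for the LITAF group over H/R (interval -0.29 to 0.17). For the H/R group over control it was at log2 0.21 ± 0.12 (adjusted p = 0.124, edgeR), and it passed with library totals (log2 0.34, adjusted p = 0.0155) and upper-quartile scaling (log2 0.33, adjusted p = 0.0244), under which the median of all genes was also higher. Bad passed with library totals too (log2 0.26, adjusted p = 0.0488, edgeR).

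Bcl2, the founding member of the family, was near the limit of detection, with 11 to 18 reads per library in the LITAF group, 4 to 16 in the H/R group and 8 to 13 in the control group. Its levels were 0.739, 0.601, 0.753 and 1.04 CPM in the LITAF libraries, 0.213, 0.285, 0.853 and 0.224 CPM in the H/R libraries, and 0.510, 0.722, 0.566 and 0.431 CPM in the control libraries. H/R library 3 stood apart from the other H/R libraries. With all libraries Bcl2 was at log2 0.96 ± 0.41 in the LITAF group over H/R (adjusted p = 0.199, edgeR) and at log2 -0.48 ± 0.43 in the H/R group over control (adjusted p = 0.339). Without H/R library 3 these became log2 1.67 ± 0.39 and log2 -1.19 ± 0.40, past the threshold in both. That library holds the outlying value and Bcl2 was kept by the filter through the LITAF group, so neither is counted as a change.

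The sides of the family were set against each other as the mean log2 CPM of the 7 pro-apoptotic members minus that of the 3 anti-apoptotic members in each library, relative to the control mean. The mean of the pro-apoptotic members was 0.40 ± 0.01 in the LITAF group and 0.24 ± 0.03 in the H/R group, against 0 ± 0.07 in the control group (log2, SD, n = 4 each), and none of these groups overlapped. Of the 7 members, 5 did not pass in the LITAF group over H/R, where the median log2 change of the 7 was 0.04 and Bax and Bcl2l11 had the largest changes. In the H/R group over control 3 of the 7 rose and 1 fell, with a median of log2 0.13. In the LITAF group over control 4 of the 7 rose, with a median of log2 0.39, and Bax had the largest change against control in both groups. The share of other gene sets whose means do not overlap is not given here. The mean of the anti-apoptotic members was 0.41 ± 0.12 in the LITAF group, 0.02 ± 0.21 in the H/R group and 0 ± 0.20 in the control group. This mean and the balance include Bcl2, which was kept by the filter through the LITAF group. Without Bcl2 the anti-apoptotic mean was 0.41 ± 0.06 in the LITAF group, 0.31 ± 0.06 in the H/R group and 0 ± 0.25 in the control group, a mean of Bcl2l1 and Mcl1 alone. In that mean the H/R group (0.2149 to 0.353) overlapped with both other groups, while the LITAF group (0.3348 to 0.4772) lay above control (-0.3581 to 0.2196). The balance was -0.01 ± 0.12 in the LITAF group and 0.22 ± 0.24 in the H/R group, with all groups overlapping, and the differences were -0.22 for LITAF over H/R and 0.22 for H/R over control. Both differences turned sign when Bcl2, with its few reads, was left out, to 0.07 and -0.07, so neither is read as a shift in the balance.

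**Figure D3:**
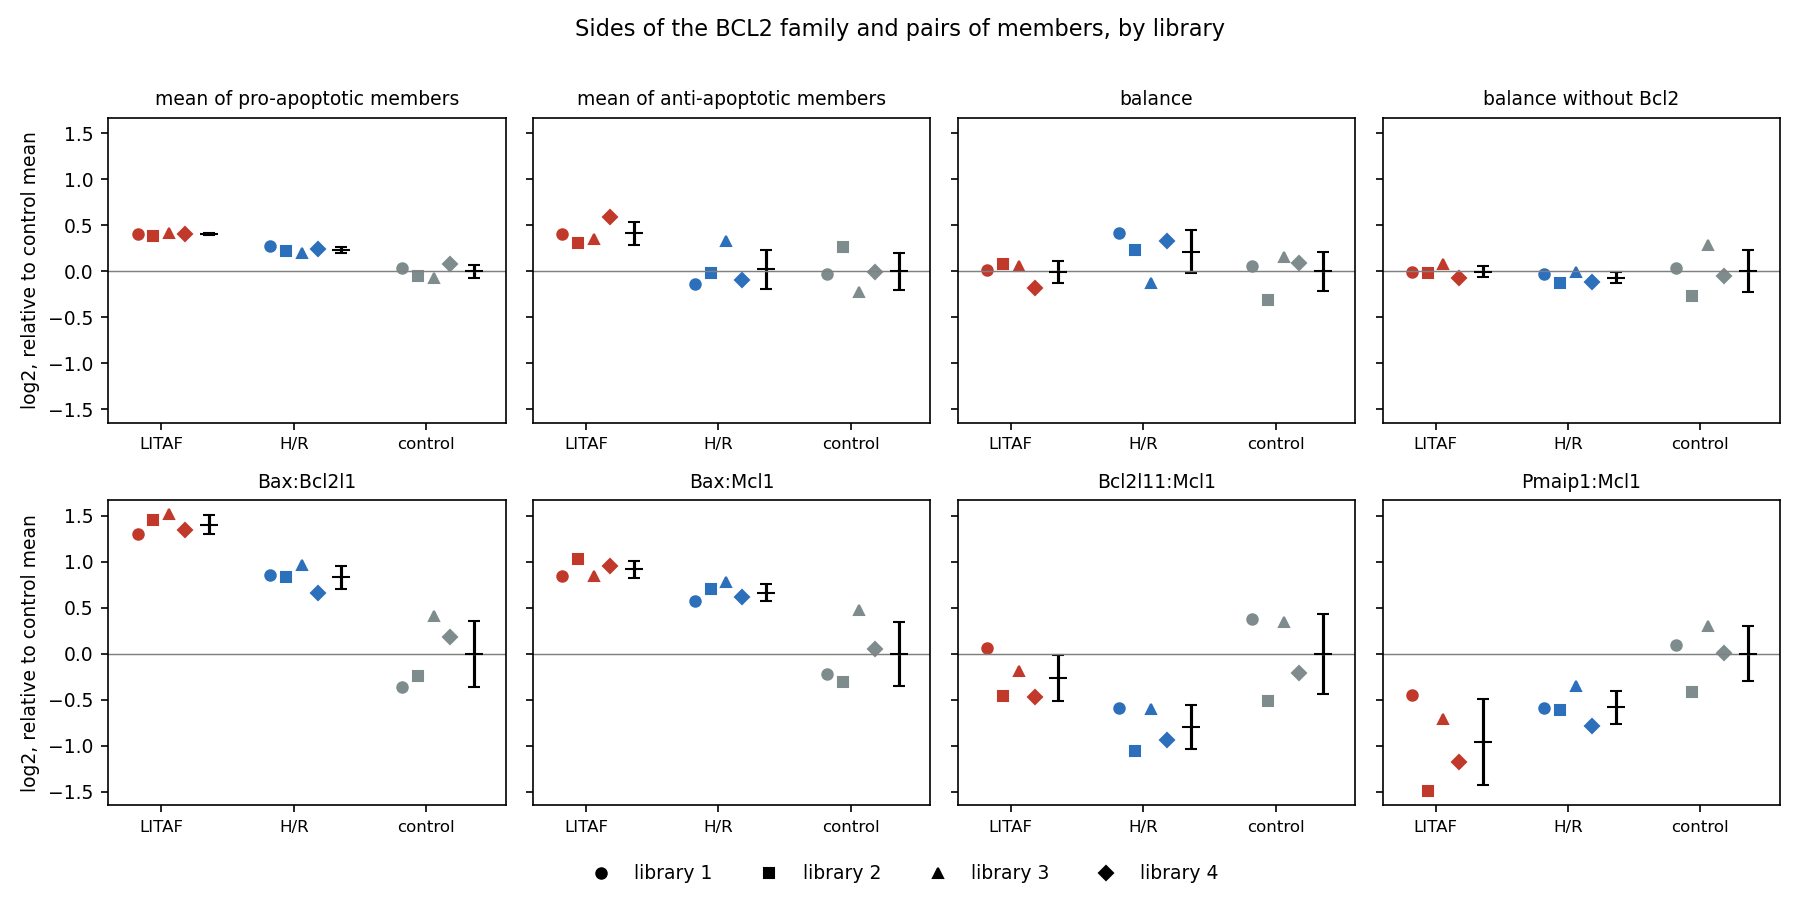
Mean log2 CPM of the pro-apoptotic and of the anti-apoptotic members, their difference with and without Bcl2, and log2 ratios of member pairs, in each library relative to the control mean, with the group mean and SD as bars. The balance overlaps in all groups, from -0.18 to 0.08 in the LITAF group, -0.12 to 0.42 in the H/R group and -0.31 to 0.15 in the control group, while the Bax to Bcl2l1 ratio does not overlap.

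Ratios of single pairs of members separated the groups in some cases and not in others. The Bax to Bcl2l1 ratio, on the log2 scale relative to control, was 1.30 to 1.52 in the LITAF group, 0.66 to 0.96 in the H/R group and -0.36 to 0.42 in the control group. For Bax to Mcl1 it was 0.84 to 1.03 in the LITAF group, 0.57 to 0.78 in the H/R group and -0.31 to 0.47 in the control group. Neither pair overlapped between groups. Bax alone also separated all groups, and the share of other gene pairs that do not overlap is not given here. The Bak1 to Mcl1 ratio lay the other way, at -1.06 to -0.58 in the LITAF group and -0.45 to -0.28 in the H/R group, without overlap, while control spanned -0.60 to 0.76. For Bax to Bcl2 the LITAF group had 0.83 to 1.54 and the H/R group 0.54 to 2.05, overlapping each other, with the few reads of Bcl2. The Bcl2l11 to Mcl1 ratio was -0.47 to 0.06 in the LITAF group, -1.05 to -0.59 in the H/R group and -0.51 to 0.38 in the control group, with the H/R libraries below both. For Pmaip1 to Mcl1 the LITAF group spanned -1.49 to -0.44 and the H/R group -0.78 to -0.35, overlapping each other. Bak1 to Bcl2l1, Bbc3 to Mcl1 and Bad to Bcl2l1 overlapped between these groups too. The pairs were picked from known partners with results in view, so no test is given.

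Of the 73 other genes listed for the pathway, 61 were tested, and in the LITAF group over H/R 4 of them rose and none fell (6.56%, beside 4.88% of all genes). All 4 were transcriptional regulators: Egr1 (log2 1.98 ± 0.11), Foxo1, Myc (log2 0.57 ± 0.14) and Jun (log2 0.45 ± 0.10). The calls of Jun and Myc were lost without H/R library 2 (edgeR adjusted p = 0.0643 for Jun and 0.0862 for Myc), H/R library 3 (0.0689 and 0.0995) or LITAF library 4 (0.0562 and 0.0715), and those of Egr1 and Foxo1 were kept. Of the 13 tested regulators the other 9 did not pass, among them Mdm2, a ubiquitin ligase gene, at log2 -0.17 ± 0.14. Ddit3, which codes for the stress factor CHOP, was left out of the fit with control because its rows differ there; in a fit without control it was at 62.7 ± 6.50 CPM in LITAF and 81.3 ± 7.47 CPM in H/R libraries and fell by 0.37 ± 0.09 on the log2 scale (adjusted p = 0.0335, edgeR). E2f1, left out for the same reason, stood at log2 0.19 ± 0.09 in that fit (adjusted p = 0.191).

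The other 6 lists, 48 genes, held 0 calls in the LITAF group over H/R by edgeR's quasi-likelihood test. At an unadjusted p under 0.05, 2 of the 48 were higher and 5 lower, a threshold at which the share of all genes is not given here. DESeq2 called 1, Pim1, beside 902 of all genes. The 48 were 5 other BCL2 family genes (median log2 0.15), 9 apoptosome and caspase genes (-0.01), 5 IAP inhibitors of caspases (-0.09), 9 genes of the outer membrane and mitochondrial fission (-0.07), 6 genes of MCL1 turnover (0.07) and 14 kinases and 14-3-3 genes that act on BAD (-0.03). Cycs, the cytochrome c gene, stood at 193 ± 18.2 CPM with LITAF and 240 ± 14.2 CPM with H/R alone (log2 -0.32 ± 0.11, adjusted p = 0.12, edgeR). Fitted without the control libraries 8 of the 61 were called, 5 higher and 3 lower, beside 1098 of all genes (776 higher, 322 lower). With 1 library left out 2 to 8 were called, beside 244 to 1285 of all genes. Without LITAF library 1, 6 were higher and 2 lower, beside 692 and 593 of all genes. With all libraries 556 of all genes were called.

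**Figure D4:**
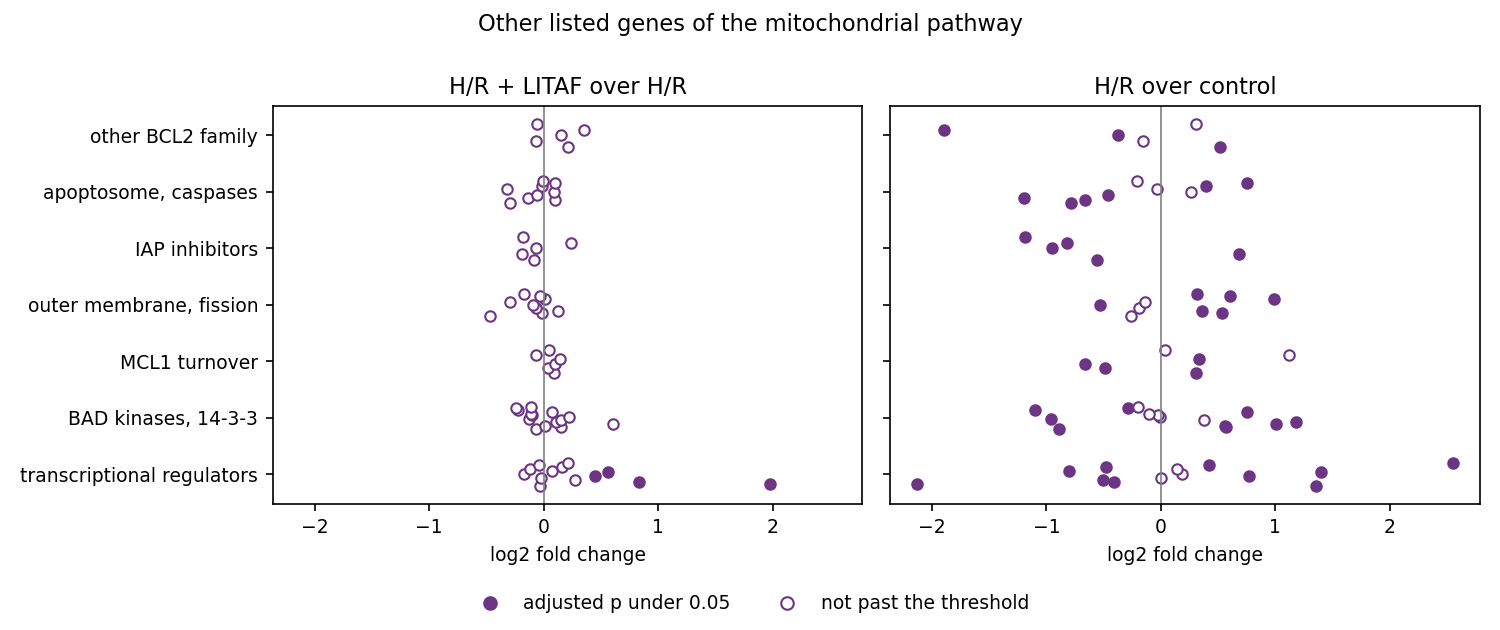
Log2 fold change of the 61 tested genes of 7 lists around the BCL2 family, in the LITAF group over H/R and in the H/R group over control, with filled points for an adjusted p under 0.05. Over H/R the filled points are 4 regulators, led by Egr1 at 1.98, whereas 43 points are filled for H/R over control.

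In the H/R group over control 43 of the 61 were called, 21 higher and 22 lower (70.5%, beside 63.6% of all genes). Of 5 other BCL2 family genes the BH3-only gene Bmf fell most, at 12.1 ± 1.24 CPM in the H/R group and 45.1 ± 6.79 CPM in control (log2 -1.90 ± 0.16, adjusted p = 4.30e-08, edgeR). Bcl2l2, an anti-apoptotic gene, fell by 0.37 ± 0.11 on the log2 scale (lost with library totals at log2 -0.25 and upper-quartile scaling at log2 -0.26), and Bcl2l12 rose by log2 0.52 ± 0.14. Of 9 apoptosome and caspase genes 4 fell and 2 rose, with Aifm1 (log2 -0.79 ± 0.12), Apaf1 and Casp6 among the falls, and Endog (log2 0.75 ± 0.14) and Diablo as the rises. Apaf1, the scaffold of the apoptosome, was at 38.8 ± 5.11 and 61.6 ± 10.9 CPM in the H/R and control groups.

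Of 5 IAP genes 4 fell in the H/R group over control, Xiap (log2 -1.19 ± 0.25), Birc5 (log2 -0.95 ± 0.11), Birc2 (log2 -0.56 ± 0.12) and Birc6, and Birc3 rose (5.18 ± 0.957 CPM in H/R, 3.22 ± 0.889 CPM in control). Birc5 codes for survivin, which also acts in mitosis. In the outer membrane list 5 of 9 rose and 1 fell, with the channel genes Vdac1 (log2 0.99 ± 0.12) and Vdac2 (log2 0.61 ± 0.08) and the fission gene Fis1 (log2 0.53 ± 0.11) among the rises. VDAC2 is known to hold BAK at the membrane. In the MCL1 turnover list Huwe1, a ubiquitin ligase for MCL1, fell by 0.66 ± 0.12 and Fbxw7 by 0.49 ± 0.15 on the log2 scale, and Marchf5 (log2 0.33 ± 0.10) and Btrc rose. Of 14 kinase and 14-3-3 genes 5 rose and 4 fell, and the smallest p-values belonged to the fall of Ywhah (log2 -1.10 ± 0.09) and the rises of Pim3 (log2 1.18 ± 0.11) and Ywhag (log2 0.75 ± 0.09). Of 13 regulators 5 rose and 5 fell, with Trib3 (log2 2.55 ± 0.12) and Atf4 (log2 1.35 ± 0.09) among the rises and Egr1 (log2 -2.13 ± 0.11) among the falls.

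In the LITAF group over control 46 of the 61 were called, 23 in each direction (75.4%, beside 64.6% of all genes). The apoptosome and caspase list had 3 rises and 5 falls among its 9 genes, and the IAP list 1 rise and 4 falls among 5. The outer membrane list had 4 of each among 9. Bmf was at 15.4 ± 3.40 CPM with LITAF and 45.1 ± 6.79 CPM in control (log2 -1.55 ± 0.16). Other BCL2 family genes had 1 rise and 1 fall among 5, MCL1 turnover genes 2 and 2 among 6, BAD kinases and 14-3-3 genes 6 and 5 among 14, and regulators 6 and 2 among 13.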

How the data were processed

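Polyadenylated RNA was sequenced, per the labels' protocols, in 12 libraries, and the authors deposited a table of estimated counts. The authors made these expected counts, called raw and given with Ensembl rat gene IDs, per the file headers. DESeq2 and edgeR are named in the submitters' processing notes with no role. Aligner, build, annotation release and strand use: not given in the sources used here. Of 16204 rows, 128 gene IDs had several rows; 56 were identical and 1 row was kept, and 72 that differed in control columns were left out. Counts were rounded, filtered with filterByExpr (minimum count 10), scaled by TMM and fitted over all 12 libraries with edgeR 4.0.16 (limma 3.58.1, R 4.3.3) by glmQLFit and a two-sided F-test; standard errors were |log2 change| over √F. DESeq2 1.42.0 was an alternative. The procedure was tested on simulated data. Log2 CPM used a prior count of 2. The common BCV (biological coefficient of variation) was 14.5%, and counting error limits the precision of genes with few reads.

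Groups, numbers and replicates came from the sample titles. The titles call each library a biological replicate, and the labels do not say whether these were separate cultures. All carry one batch label, so p-values cover only the spread among these libraries, part of which may be technical. H/R and control libraries of the same number deviated together across genes (correlations 0.302 to 0.568), so these numbers pair the libraries. Different numbers gave -0.269 to -0.0293 there. The main fit left this pairing out, and the replicate block was an alternative. Same-number correlations of LITAF with H/R (0.0543 to 0.197) and with control (0.0487 to 0.1) did not meet 0.1 in all pairs. Those of different numbers reached 0.226 with H/R and 0.155 with control.

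The members, the 73 other listed genes, the tests and the alternatives were chosen with earlier results of these data known. All members were named, with up to 3 genes per list by smallest adjusted p under 0.05 in the first and second comparison (only Bmf for LITAF over control, and some listed genes are not reported here); Pim1, Casp6, Diablo, Apaf1, Cycs, Mdm2, Birc6, Birc3, Btrc and Myc, and the neighbours Ftl1, Dhdh and Acoxl, were added after their values were seen. For the member with the largest change in the second comparison, Bax, the 3 most similar genes were taken by Euclidean distance in both log2 changes among genes of at least log2 CPM 2; those of Bcl2, the largest in the first, are not given because it rests on 4 to 18 reads per library.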

Additional observations from a re-analysis of the deposited data

Results flagged for a closer look

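Of 78 sets of 4 libraries checked for a library far from the others, 2 were picked out, and chance picks about 1 in 20. Both involve Bcl2 in H/R library 3. Its Bcl2 level was 0.853 CPM, with the other H/R libraries at 0.213 to 0.285 CPM. The Bax to Bcl2 ratio there was 0.54 on the log2 scale relative to the control mean, with the other H/R libraries at 1.85 to 2.05. These values rest on 16 reads in that library and 4 to 5 in the others.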

How the results depend on the processing

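For LITAF over H/R, Bax and Bcl2l11 were the members called under every scaling, without the filter, with DESeq2 and with the replicate block, and 2 to 3 members were called with 1 library left out. Only Bcl2l11, 1 member, passed an adjusted p of 0.01. The count over all genes was 556, and 902 with DESeq2, 1098 in a fit of both groups alone, 182 at an adjusted p under 0.01, and 244 to 1285 with 1 library left out: 1285 without LITAF library 1, 322 and 244 without LITAF libraries 3 and 4, and 272, 279, 244 and 365 without H/R libraries 1 to 4. With the replicate block it was 873, and 887 with the block in a fit of both groups alone, which was chosen after seeing the data; the block in the fit of all libraries changed no call of a member, with 2, 5 and 5 members called. In the fit of both groups alone it ended the call of Mcl1 (adjusted p = 0.0501 with the block, 0.018 without, by edgeR). Of the other listed genes, 4 were called, 8 in the fit of both groups alone, 2 at an adjusted p under 0.01 and 2 to 8 with 1 library left out.

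For H/R over control, 5 members were called, 2 at an adjusted p under 0.01 and 3 to 6 with 1 library left out (3 without H/R library 4). Over all genes the counts were 7248, 5976 and 6768 to 7224 at these settings. For LITAF over control 4 to 5 members were called throughout, beside 6094 to 7672 of all genes. The balance moved to 0.066 without Bcl2 and -0.447 without Bcl2l1 for LITAF over H/R, to -0.0704 without Bcl2 for H/R over control, and from -0.01 to -0.20 without Bax for LITAF over control. No called change of a member or named gene reversed its sign under these alternatives. The anti-apoptotic mean without Bcl2 and the values of Jun and Myc with 1 library left out were added after seeing the data. Where a call changed, the cause was not tested. Depth limits Bcl2 above all, at 4 to 18 reads per library.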

Other observations

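The LITAF libraries differed among themselves in several members. Litaf was at 2691, 2008, 2532 and 2120 CPM in LITAF libraries 1 to 4. Libraries 1 and 3, the higher in Litaf, were also the higher in Pmaip1 (333 and 281 CPM, against 157 and 204 CPM) and in Bcl2l11 (25.9 and 22.2 CPM, against 17.6 and 18.2 CPM). They were the lower in Bak1, Bad, Bid and Bax, with Bad at 30.1 and 34.7 CPM, against 43.0 and 40.1 CPM. In the H/R group, libraries 1 and 3 were likewise the higher in Bcl2l11 and Pmaip1, while their Litaf levels, 549 and 573 CPM, were the lower. With 4 libraries a group no correlation is given.

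Among 9849 genes of at least log2 CPM 2, those nearest to Bax in the pair of log2 changes (LITAF over H/R, H/R over control) were Slc7a11, the cystine transporter gene (0.51 and 1.03), Tcp11l2 (0.55 and 1.00) and Gstt2 (0.44 and 1.00), against 0.52 and 1.04 for Bax.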
